A study of Mus musculus with 6 samples.

Results

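The genes described here are those of cholesterol synthesis and sterol transport in the fetal mouse cortex: 30 genes out of the 45583 gene rows for which read counts were deposited. They were taken by symbol from a list of 18 sterol synthesis enzymes, 5 genes of sterol sensing by the SREBP (sterol regulatory element binding protein) system and 7 genes of sterol transport and storage. All 30 were present in the table, and all 30 passed the filter on low counts, as did 13741 genes in all. RNA sequencing had been done on the cerebral cortex of 6 male fetuses at GD15.5 (gestational day) of the Cyp19-EGFP strain, a transgenic line in which a bacterial artificial chromosome puts EGFP under the control of Cyp19a1, the aromatase gene. Each fetus is labelled WT and SRY +. The dams of 3 fetuses had received bisphenol A (BPA, a plastic monomer that acts weakly on estrogen receptors) as subcutaneous doses of 50 µg/kg between GD10.5 and GD14.5, and the dams of the other 3 had received vehicle (peanut oil) over the same days. The labels give no litter, so fetuses of a group may be littermates, and p-values measure the spread between these 6 libraries.

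Cholesterol does not cross the blood-brain barrier in useful amounts, and the brain makes its own. Acetyl-CoA is joined and reduced to mevalonate, which is turned into isoprenoid units, joined to squalene, closed to lanosterol and then trimmed to cholesterol in the endoplasmic reticulum. When sterols are scarce, SCAP carries the SREBP proteins to the Golgi, where they are cut to release transcription factors that raise the synthesis genes together, and when sterols are plentiful the INSIG proteins hold SCAP back.

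Total counts ran from 3444601 in BPA replicate 3 to 7180835 in vehicle replicate 2, so a count of 0 allowed a level of up to 0.875 CPM (the usual depth-scaled read count, with library totals adjusted by TMM, a trimmed-mean factor) in the shallowest library, covering counting error only. The tissue label was checked against lists of marker genes. The 9 genes listed for dorsal pallium progenitors and neurons summed to 4896 to 5339 CPM in vehicle and 4812 to 5162 CPM in BPA. Of each sum Tubb3 gave 2004 to 2530 CPM and Bcl11b 619 to 758 CPM. Neurons outside the pallium also express Tubb3 and Bcl11b, so the sums are not specific to pallium. The 7 microglia markers summed to 45.3 to 60.9 CPM in vehicle and 51.0 to 57.0 CPM in BPA. Markers of choroid plexus set a pair of libraries apart: the 6 markers summed to 229 CPM in vehicle replicate 2 and 365 CPM in BPA replicate 2, against 11.6 to 19.5 CPM in the other 4 libraries. Those of pericytes and meninges summed to 159 CPM in vehicle replicate 3 and 130 CPM in BPA replicate 2, against 101 to 108 CPM elsewhere. Over all libraries, sums were 1531 to 1618 CPM for radial glia, 139 to 160 CPM for endothelium and 264 to 589 CPM for erythroid cells. The summed level of the 8 markers of ventral telencephalon ran from 987 to 1132 CPM in vehicle and from 866 to 945 CPM in BPA. The libraries of the groups did not overlap for 6 of these 8, all lower in BPA, where 3.56% of all genes tested did not overlap and were lower. By edgeR's quasi-likelihood test 0 of the 8 passed an adjusted p of 0.1, and 4 had an unadjusted p under 0.05, against 0.00% and 2.20% of all genes tested. The part of these cell types in the values below was not tested, and in bulk tissue fewer cells of a type and less RNA per cell cannot be told apart.

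The promoters of the synthesis genes share a sequence feature that their choice did not use. In the 250 bases before the RefSeq gene starts (GRCm38.p6), the letters CCAAT, the box bound by NF-Y, a partner of SREBP at sterol genes, were searched on both strands. Of the 30 genes, 24 had an entry, and Fdps, Fdft1, Sqle, Stard4, Npc1 and Abcg1 had none. CCAAT stood before at least 1 start of 20 of the 24 genes and of 14 of the 15 synthesis enzymes with an entry, against 37.5% of all 27025 genes and 33.8% of all 32851 promoters of the same length. Acat2 was the enzyme without it. The 27025 genes were not limited to those that passed the filter on low counts, as all 30 had, so the shares are not matched for expression. The classical sterol regulatory element, with all of its 10 letters, stood before 0 of the 24 genes and 0.0814% of all genes. The shorter TCACNCCA, which covers the middle of that element and was chosen after several forms had been searched, stood before 4 of the 24 (Hmgcs1, Msmo1, Srebf2 and Apoe) and 4.20% of all genes. A match is a description of letters and not a site of binding. Below are stretches before 3 starts, chosen for holding both motifs (Hmgcs1 and Srebf2) or the most CCAAT boxes (Mvk). Msmo1 also held both motifs, but its stretch lies wholly within an annotated exon of the gene and is not shown. Capitals mark CCAAT, read as ATTGG where it lies on the opposite strand, and TCACNCCA.
Hmgcs1, chr13:119690106-119690318, plus strand: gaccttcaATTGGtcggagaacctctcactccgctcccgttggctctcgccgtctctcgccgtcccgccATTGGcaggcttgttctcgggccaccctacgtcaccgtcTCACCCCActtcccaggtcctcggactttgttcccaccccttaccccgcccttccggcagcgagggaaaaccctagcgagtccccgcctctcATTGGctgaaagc
Srebf2, chr15:82147099-82147146, plus strand: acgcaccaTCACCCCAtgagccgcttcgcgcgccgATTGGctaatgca
Mvk, chr5:114444088-114444267, plus strand: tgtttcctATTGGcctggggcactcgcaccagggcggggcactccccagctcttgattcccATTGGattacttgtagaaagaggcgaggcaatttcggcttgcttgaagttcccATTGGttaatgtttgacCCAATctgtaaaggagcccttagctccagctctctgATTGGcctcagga
In the Mvk stretch the 4 boxes on the opposite strand followed each other at the same distance of 53 bases. Units of 53 bases, each starting at a box, were mostly different. From one unit to the next 17, 14 and 17 of 53 positions were identical, and these include the letters of the box itself. The last unit runs past the end of the stretch shown.

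Whether maternal BPA changed these genes in the fetal cortex was examined in a fit across all genes. None of the 30 passed the test. In edgeR's quasi-likelihood fit 0 genes reached a Benjamini-Hochberg adjusted p under 0.1, and 0 had an unadjusted p under 0.05. The background over all 13741 genes was 0.00% past the adjusted threshold and 2.20% at an unadjusted p under 0.05. DESeq2 and limma-voom also called 0 of the 30 past the adjusted threshold, where they called 3 and 0 of all 13741 genes. At an unadjusted p under 0.05 DESeq2 found 0 of the 30 and 126 of all genes. For limma-voom these counts were 1, Idi1, and 287. The median log2 fold change of the 30 genes was -0.025, against 0.0016 over all genes tested, and 19 were lower and 11 higher in BPA, where 49.5% of all genes tested were lower. For 28 of the 30, the 95% interval of the log2 fold change lay inside a 1.5-fold change in either direction. The exceptions were Fdps, whose interval ran from -0.76 to 0.28, and Idi1, from -0.46 to 2.01.

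**Figure D1:**
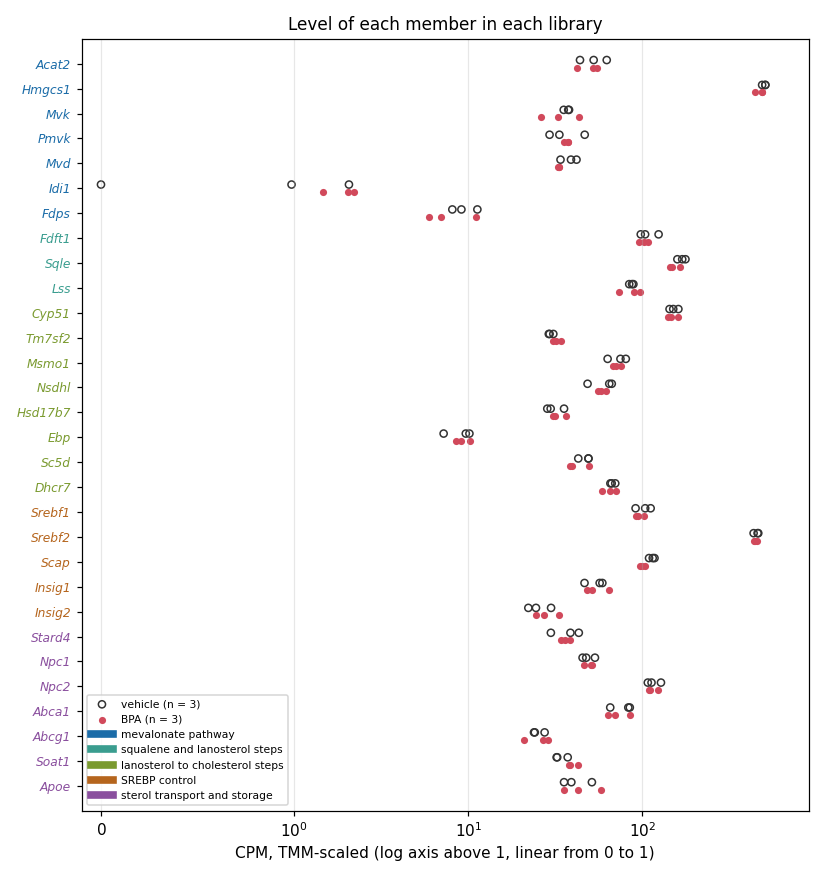
CPM (x axis, logarithmic above 1 and linear from 0 to 1) of each of the 30 genes (y axis, colored by role) in the 3 vehicle libraries (open circles) and the 3 BPA libraries (filled circles). The circles of the groups lie among each other for most genes, Hmgcs1 and Srebf2 have the most counts, and Idi1 is at 0 in 1 vehicle library.

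The enzymes that make mevalonate and isoprenoid units are considered first. Hmgcs1 (chromosome 13, 119690379 to 119708260, plus strand), which encodes the cytosolic synthase that makes HMG-CoA, had the highest level per kilobase of exon of the 30 genes, at 106 CPM per kb ± 5.03 (SD, n = 6). Its CPM values were 487.3, 508 and 508 in vehicle and 445, 487.2 and 485 in BPA. The BPA libraries were all below the vehicle libraries, but by a gap of only 0.0598 CPM, and the log2 fold change was -0.085 (SE 0.0886). Part of its exons (12.1%) overlaps the antisense gene Gm48342. Mvd (chromosome 8, 122433601 to 122443422, minus strand), the decarboxylase that yields the first isoprenoid unit, stood at 33.8, 38.8 and 41.8 CPM in vehicle and at 33.3, 33.3 and 32.7 CPM in BPA. All BPA libraries of Mvd were again lower, and its log2 fold change was -0.20 (SE 0.124, unadjusted p = 0.127). Acat2, which makes acetoacetyl-CoA, Mvk, the mevalonate kinase, and Pmvk, the phosphomevalonate kinase, had log2 fold changes of -0.097, -0.093 and 0.013, and their groups overlapped.

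Idi1, the isomerase that interconverts the isoprenoid units, and Fdps, which joins them to farnesyl diphosphate, were the least covered of the 30 genes per length. Idi1 (chromosome 13, 8885501 to 8892451, plus strand) had 14, 7 and 0 counts in the vehicle libraries and 14, 9 and 7 counts in the BPA libraries, so the fitted log2 fold change of 0.78 (SE 0.579, unadjusted p = 0.200) rests on few reads. Its level of 0.416 CPM per kb ± 0.242 (SD, n = 6) was far under the 19.2 CPM per kb ± 2.03 of Mvd, the enzyme before it. Without vehicle replicate 1 the log2 fold change of Idi1 was 1.70 (unadjusted p = 0.0235, adjusted p = 0.9994), and without vehicle replicate 3, the library at 0, it was 0.31. Fdps (chromosome 3, 89093588 to 89101959, minus strand) was at 9.12, 11.3 and 8.09 CPM in vehicle and 5.97, 11.1 and 7.0 CPM in BPA, a log2 fold change of -0.24 (SE 0.244). The BPA value nearest to vehicle came from BPA replicate 2, without which the log2 fold change of Fdps was -0.58 (unadjusted p = 0.0349, adjusted p = 0.995).

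Both genes share sequence with other genes. Of the 50-base words in their GENCODE M21 transcripts, 25.3% for Idi1 and 26.2% for Fdps also occurred in another gene, against 0 to 11.6% for the other genes apart from Fdft1 (26.5%) and Acat2 (39.1%). The processed pseudogenes Gm3571, Gm5873 and Gm8163, which resemble Fdps, together had 71 to 115 counts per library, while Fdps itself had 24 to 80. Counts of Fdps with these copies added came to 27.2 CPM ± 1.09 in the vehicle group and to 25.9 CPM ± 3.01 in the BPA group (SD, n = 3 each), a log2 fold change of -0.074 (SE 0.136). In GENCODE M21, 26.7% of the Fdps exon length also overlaps Gm43738 on the same strand. For Idi1 with the pseudogene Gm13502 added, the log2 fold change was 0.26 (SE 0.388). How reads with several alignments were counted is not given in the sources used here, so the levels of Idi1 and Fdps are uncertain and their part in the low values was not tested. Acat2 shares 39.1% of its words with the paralog Acat3, which was listed at 1 to 6 counts per library. It also shares 11.2% of its words with Tcp1, which had 757 to 1504 counts per library. The part of this sharing in the level of Acat2 was not tested.

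**Figure D2:**
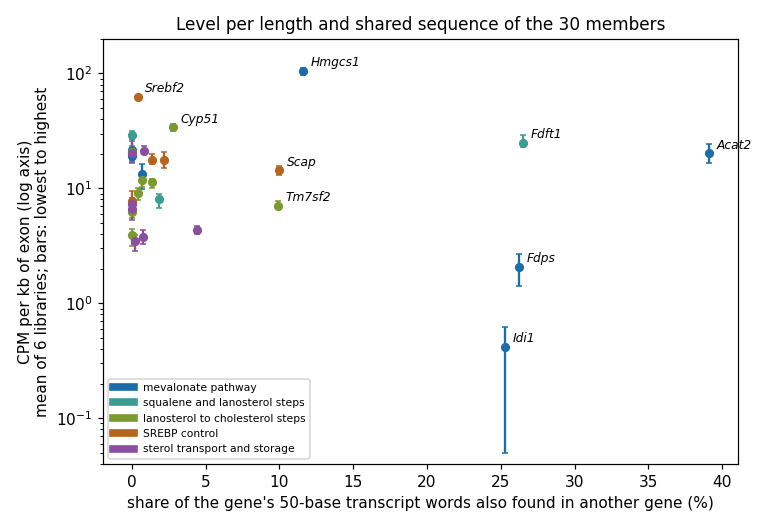
Level per kilobase of exon (y axis, log scale, mean of the 6 libraries with bars from lowest to highest, the bar of Idi1 cut at the bottom because 1 library is at 0) against the share of each gene's 50-base transcript words found in another gene (x axis, %). Idi1 and Fdps lie lowest at about 26% shared words, whereas Fdft1 at 26.5% and Acat2 at 39.1% lie among the other genes.

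The 3 enzymes from farnesyl diphosphate to lanosterol all had fitted log2 fold changes below 0, and none passed the test. Sqle, squalene epoxidase, a rate-limiting oxygenase of the pathway, was at 169, 159 and 177 CPM in vehicle and 147, 144 and 165 CPM in BPA. The groups overlapped through BPA replicate 3, and the log2 fold change of Sqle was -0.15 (SE 0.0979, unadjusted p = 0.152). Fdft1, which makes squalene from farnesyl diphosphate, had a log2 fold change of -0.088 (SE 0.112). Part of its exons (18.3%) overlaps Ctsb on the opposite strand, and Ctsb had 829 to 1649 counts per library. Lss, lanosterol synthase, averaged 86.6 CPM ± 2.42 in the vehicle group and 86.7 CPM ± 12.1 in the BPA group (SD, n = 3 each), with a fitted log2 fold change of -0.0053.

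Of the 8 enzymes that turn lanosterol into cholesterol, 5 had log2 fold changes below 0 and 3 above, from -0.17 to 0.12. Tm7sf2 (chromosome 19, 6062821 to 6068373, minus strand), a sterol C14-reductase, was at 29.0, 29.3 and 30.8 CPM in vehicle and at 30.8, 32.0 and 34.1 CPM in BPA. Its groups were separated by 0.0159 CPM, the log2 fold change was 0.12 (SE 0.122), and 12.1% of its exon length overlaps Vps51 on the same strand. Sc5d, the sterol C5-desaturase, was at 42.8, 49.0 and 48.9 CPM in vehicle and 38.2, 39.3 and 49.0 CPM in BPA. BPA replicate 3 stood as high as vehicle, and the log2 fold change of Sc5d was -0.17 (SE 0.127, unadjusted p = 0.209). Cyp51, the lanosterol 14-demethylase and the third of the 30 genes per length at 34.0 CPM per kb ± 2.04 (SD, n = 6), differed by -0.024 on the log2 scale (SE 0.0991). Msmo1 and Nsdhl, which remove the methyl groups at carbon 4, differed by -0.026 and -0.025, and Hsd17b7, which acts in the same reaction, by 0.059. Ebp, the sterol isomerase, averaged 9.0 CPM ± 1.57 in the vehicle group and 9.25 CPM ± 0.898 in the BPA group (SD, n = 3 each). Dhcr7, which carries out the last reduction and is mutated in Smith-Lemli-Opitz syndrome, averaged 67.3 CPM ± 2.26 and 64.7 CPM ± 5.88 in the same order.

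Summed over the 18 enzymes, levels were 1452, 1504 and 1566 CPM in vehicle and 1366, 1454 and 1490 CPM in BPA, a difference of the means of -4.69%. Hmgcs1 gave 445 to 508 CPM and Sqle 144 to 177 CPM of each sum, so abundant genes weigh most in this difference. Each of the BPA libraries 2 and 3 lay within the range of vehicle, and BPA replicate 1 lay below it. BPA replicate 1 had the lowest value of the 6 libraries for 7 of the 18 enzymes, and BPA replicate 3, the shallowest library, had the highest for 6. Vehicle libraries were close to this, with vehicle replicate 1 lowest for 5 enzymes and vehicle replicate 3 highest for 5. How often each library held the extreme value over all genes was not worked out, so these counts have no background.

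**Figure D3:**
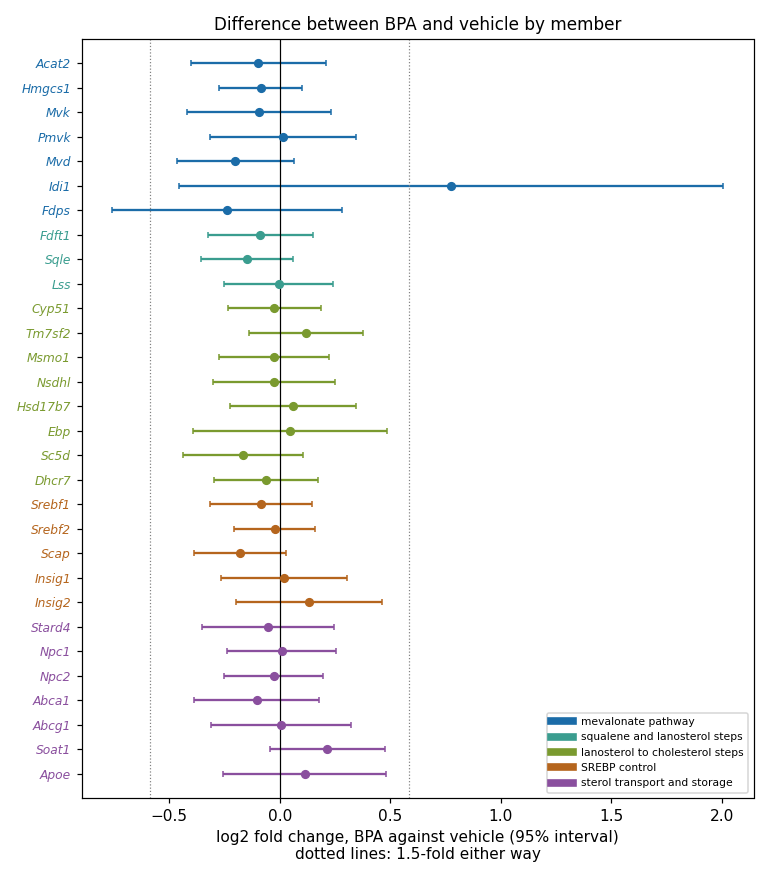
Log2 fold change of BPA against vehicle (x axis) with its 95% interval from edgeR's quasi-likelihood fit for each gene (y axis, colored by role). All 30 intervals include 0, and all but those of Idi1 and Fdps lie between the dotted lines at a 1.5-fold change.

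Among the genes that control the pathway, Scap (chromosome 9, 110333288 to 110384950, plus strand), the sterol sensor that escorts SREBP, had the smallest unadjusted p of the 30 genes. It was at 109, 115 and 117 CPM in vehicle and at 96.7, 104 and 100.1 CPM in BPA. All BPA libraries of Scap were lower, by a gap of 5.29 CPM, and the log2 fold change was -0.18 (SE 0.0982, unadjusted p = 0.0837, adjusted p = 0.9998). Part of its exons (13.2%) overlaps 5830462I19Rik on the opposite strand, which had 0 to 5 counts per library. Insig2, which retains SCAP in the endoplasmic reticulum, was at 29.9, 22.1 and 24.5 CPM in vehicle and 24.5, 27.1 and 33.3 CPM in BPA, with overlapping groups and a log2 fold change of 0.13 (SE 0.155). Insig1, its paralog, averaged 54.0 CPM ± 6.63 in the vehicle group and 54.5 CPM ± 8.49 in the BPA group (SD, n = 3 each). Srebf2, which encodes the main driver of the cholesterol synthesis genes, averaged 452 CPM ± 14.9 and 445 CPM ± 10.0 (SD, n = 3 each), and its log2 fold change of -0.023 (SE 0.087) had the smallest error of the 30. Srebf1, whose product leans to fatty acid genes, averaged 102 CPM ± 10.2 and 96.2 CPM ± 5.07.

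Of the transport and storage genes, Soat1 (chromosome 1, 156424525 to 156474331, minus strand), which esterifies cholesterol for storage, was at 37.2, 32.4 and 32.1 CPM in vehicle and at 38.3, 37.9 and 42.6 CPM in BPA. All BPA libraries of Soat1 were higher, by a gap of 0.654 CPM, and the log2 fold change was 0.21 (SE 0.123, unadjusted p = 0.0999, adjusted p = 0.9998). Npc1 and Npc2, which pass cholesterol out of the lysosome and are mutated in Niemann-Pick disease type C, differed by 0.0099 (SE 0.116) and -0.027 (SE 0.106) on the log2 scale. Stard4, a cytosolic sterol carrier, differed by -0.054, and the exporters Abca1 and Abcg1, which load cholesterol onto lipoproteins, by -0.10 and 0.0057. Apoe, the main apolipoprotein of the brain, averaged 41.9 CPM ± 8.28 in the vehicle group and 45.3 CPM ± 11.4 in the BPA group (SD, n = 3 each).

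The libraries of the groups did not overlap for 5 of the 30 genes, Hmgcs1, Mvd, Scap, Tm7sf2 and Soat1, or 16.7%, against 6.75% of all genes tested. The first 3 were lower and the last 2 higher in BPA, where 3.56% of all genes did not overlap and were lower and 3.19% were higher. With libraries scaled by total counts alone, the number fell to 2, Scap and Soat1. The share of all genes under that scaling was not worked out, so this number has no background beside it.

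Some of the 30 genes, like many other genes, had their extreme values in the libraries rich in choroid plexus transcripts. Apoe was at 51.2 CPM in vehicle replicate 2 and 57.9 CPM in BPA replicate 2, and at 35.4 to 42.6 CPM in the other 4 libraries. Insig1 was at 58.8 and 64.0 CPM in the same pair of libraries, against 46.5 to 56.8 CPM, and Mvk, Fdps and Ebp also had their highest values there. These 5 genes are 16.7% of the 30, not far from the 11.4% of all genes tested that had their highest values in these libraries. Abca1 was the only one of the 30 with its lowest values there, at 65.3 and 63.2 CPM against 69.9 to 84.6 CPM, as were 9.79% of all genes tested. Ttr, the leading choroid plexus transcript, was at 195 and 308 CPM in these libraries and at 2.21 to 11.9 CPM elsewhere, and its part in the values of Apoe, Insig1 and Abca1 was not tested. Since each group held 1 such library, they were left out together, and again 0 of the 30 genes had an unadjusted p under 0.05, while 954 of 13643 genes tested did.

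**Figure D4:**
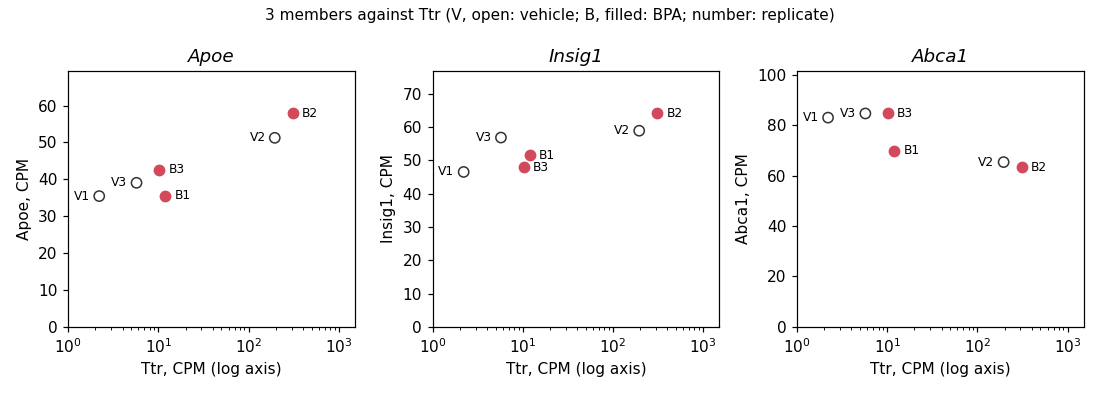
CPM of Apoe, Insig1 and Abca1 (y axes) against CPM of Ttr (x axes, log scale) in the 3 vehicle libraries (open) and the 3 BPA libraries (filled). The pair of libraries with Ttr at 195 and 308 CPM, 1 from each group, holds the highest Apoe and Insig1 and the lowest Abca1. These genes were picked for the figure after their values were seen.

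The neighboring branches of sterol and lipid metabolism were read from 5 further lists with 70 genes, of which 64 were tested and 0 passed the adjusted threshold. At an unadjusted p under 0.05 there were 2 of 64, close to the 2.20% of all genes tested, and both were lower in BPA. Scp2, a sterol carrier of peroxisomes, averaged 50.5 CPM ± 1.56 in the vehicle group and 42.3 CPM ± 2.11 in the BPA group (SD, n = 3 each), a log2 fold change of -0.25 (SE 0.111, unadjusted p = 0.0407). Lrp2, the megalin receptor, had 6 to 37 counts per library and a log2 fold change of -0.65 (SE 0.307, unadjusted p = 0.0494). Both had an adjusted p of 0.9998.

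The 12 fatty acid genes that SREBP also drives had a median log2 fold change of -0.062, with 8 lower and 4 higher in BPA. Scd1, a fatty acid desaturase, differed by -0.22 (SE 0.142) and Me1, the malic enzyme that supplies NADPH, by -0.26 (SE 0.204). The 12 genes of the isoprenoid branch, which leads to dolichol, ubiquinone and prenylated proteins, had a median of -0.012. Pggt1b and Fntb, which encode prenyltransferase subunits, had the smallest p of these, with differences of 0.18 (SE 0.162) and -0.12 (SE 0.114) on the log2 scale. The 12 genes of SREBP cleavage and sterol-regulated protein breakdown had a median of 0.051, and Ube2g2, a ubiquitin-conjugating enzyme, was at 0.17 (SE 0.123). The 6 tested genes of the liver X receptor group, which senses excess sterol, had a median of -0.10, with Mylip at -0.28 (SE 0.202) and Arl4c at -0.11 (SE 0.108). Among the 27 lipoprotein receptor, oxysterol and sterol carrier genes, 22 were tested, with a median of 0.036. Cyp27a1, Ch25h and Soat2 had 0 to 2 counts per library, so differences in them were not detectable at this depth.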

How the data were processed

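The authors deposited raw read counts per gene symbol for 6 libraries of total RNA from fetal mouse cortex, 3 vehicle and 3 BPA. Per the submitters' processing notes and methods, strand-specific libraries were read as single ends of 50 bases, aligned with TopHat2 2.0.14 to GRCm38 and counted with featureCounts on GENCODE models. StringTie 1.2.4 is also named. The use of strand and of multiply aligned reads is not given in the sources used here.

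The analysis used R 4.3.3. The filterByExpr function of edgeR 4.0.16 (minimum count 10, minimum total 15) chose the genes, TMM scaled the libraries, and the quasi-likelihood test of edgeR, with treatment as its only term, compared the groups. P-values were adjusted by Benjamini-Hochberg over all 13741 genes, and 0.1 was the threshold, as in the study. SEs are those implied by the test statistic, and 95% intervals use them. CPM are TMM-scaled. Replicates were numbered in accession order. DESeq2 1.42.0, limma-voom (limma 3.58.1), other scalings and filters and the omission of each library were alternatives. Leaving out both choroid-rich libraries, adding the counts of near-identical copies and the overlap under other scalings were added after seeing the data. Exonic lengths (all annotated exons merged), coordinates and shared words came from GENCODE M21 (GRCm38), and promoters from RefSeq (GRCm38.p6). The scripts were tested on simulated data.

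The genes and lists were chosen with earlier results of these data known. Genes given with values in every library were those whose groups did not overlap and the 10 with the smallest unadjusted p. From each further list the 2 genes with the smallest p were named, with summary values. One gene that this rule names is not reported here. Abca1 and the genes described with the choroid plexus markers, Cyp27a1, Ch25h and Soat2 were named after their values were seen.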

Additional observations from a re-analysis of the deposited data

How the results depend on the processing

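The count of the 30 genes past an adjusted p of 0.1 was 0 under DESeq2, limma-voom, both other scalings, both other filters, each omission of 1 library, the omission of both choroid-rich libraries and the addition of near-identical copies. The count at an unadjusted p under 0.05 was 0, but 1 with limma-voom (Idi1), and 0 to 1 when 1 library was left out (Idi1 without vehicle replicate 1, Fdps without BPA replicate 2). Over all genes limma-voom found 287 of 13741. Without vehicle replicate 1 it was 346 of 13925 genes, and without BPA replicate 2 it was 563 of 14010. Omissions of 1 library ranged from 194 to 708 genes. The count of genes higher in BPA was 11, and 8 to 14 when 1 library was left out. The number of genes whose groups did not overlap was 5, and 2 with library size alone, for which the share of all genes was not worked out. For these values the cause was not tested.

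Of 417 values of single genes under these alternatives, 375 kept the sign of the log2 fold change and 42 did not, none of them above 0.13 in size. A total of 11 genes kept their sign under every alternative run. With limma-voom Abcg1 turned to -0.0074. Without both choroid-rich libraries Lss was at 0.11, Nsdhl at 0.00082, Srebf1 at 0.0075, Srebf2 at 0.0092 and Insig1 at -0.037. When 1 library was left out, ranges that crossed 0 were -0.22 to 0.044 for Acat2, -0.31 to 0.040 for Mvk, -0.13 to 0.24 for Pmvk, -0.16 to 0.013 for Fdft1, -0.089 to 0.10 for Lss, -0.081 to 0.020 for Cyp51, -0.12 to 0.046 for Msmo1, -0.16 to 0.053 for Nsdhl, -0.013 to 0.16 for Hsd17b7, -0.097 to 0.15 for Ebp, -0.12 to 0.0069 for Dhcr7, -0.12 to 0.097 for Insig1, -0.18 to 0.063 for Stard4, -0.043 to 0.084 for Npc1, -0.085 to 0.045 for Npc2, -0.074 to 0.14 for Abcg1 and -0.12 to 0.29 for Apoe. No paired analysis was possible because the labels give no replicate numbers or litters that link fetuses of the groups.

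Depth limits Idi1, with 0 to 14 counts per library, and Fdps and Ebp, with 24 to 80 and 31 to 72. These 3 genes were left out by a minimum of 10 CPM in 3 libraries, under which 27 were tested.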
